A study of Arabidopsis thaliana with 30 samples.

Results

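A pair of runs of neighbouring genes, on chromosomes 4 and 3 of Arabidopsis thaliana, had more abundant transcripts in seedlings of the tsk mutant than in wild type. The members were taken by locus number: AT4G31600 to AT4G32690 without AT4G31800, and AT3G54010 to AT3G54700 without AT3G54560. Of the 20404 genes in the deposited tables, 147 are members, 89 in the chromosome 4 run and 58 in the chromosome 3 run. The annotation lists 205 loci in these ranges without the 2 left out, and those that are not in the tables, AT3G54700 among them, are not analysed here. In the TAIR10.1 annotation the chromosome 4 run spans chr4:15314867-15767106 (452 kb) and the chromosome 3 run chr3:20000821-20248152 (247 kb). The ranges were drawn around genes that stood higher in tsk libraries than in wild type, so the tsk values of the members are given as descriptions without a test. Tests are given for the response to methyl methanesulfonate (MMS), the other mutants and the flanking genes. They are not all independent of the choice. The test of flanking genes and that of the difference in MMS response between tsk and Col rest on the contrast behind it. The other mutants were compared with the same Col libraries.

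TONSOKU (TSK) is a nuclear protein that works at replication forks, where it takes part in the repair of broken or stalled forks, and tsk mutants are known for disorganised shoot and root meristems. Arabidopsis tsk mutants have been reported to gain long tandem duplications of chromosome segments; this is background only, since the files hold RNA values and DNA was not measured in them. Neighbouring genes of a plant chromosome mostly have unrelated roles and separate promoters, and the members here range from photosynthesis to cellulose synthesis and cell division.

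RNA came from seedlings kept for 7 days on MS medium in long days; the labels name leaves as the tissue. There were 10 groups of 3 libraries, 30 in all: tsk under MMS and mock, h2a.x/w-2 (XW), which combines mutations of both variants, under MMS and mock, h2a.w-2 (W) under MMS and mock, h2a.x-1 (X) under MMS and mock, and the wild type Columbia (Col) under MMS and mock. MMS is an agent that alkylates DNA; its dose and the length of treatment are not given in the sources used here. H2A.X and H2A.W are variants of histone H2A, and the study, by its title, concerns how their tails bring TSK to chromatin for DNA repair. All groups share the Columbia background, and the labels give neither the tsk allele nor the number of lines or separate cultures behind the 3 replicates, so a p-value here covers the spread between the sequenced samples alone, which may be technical. In RNA taken from many cells at once, more transcript per cell and more cells that express a gene cannot be told apart.

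The sequences just before the starts of 5 members follow as a description, and how the members are regulated was not tested. They were read from the RefSeq genome (TAIR10.1) on the strand of each gene and cut where an annotated exon begins. BZIP25 and AT4G31860 rose strongly under MMS, DJ1F and BAT1 (AT4G31910) fell most, and CDKB1;1 is the cell cycle gene with the largest difference between tsk and Col. Capitals mark a match to CTT and AAG parted by any 7 bases, a form bound by the damage response factor SOG1. The stretches are chr3:20220498-20220673 (minus strand) for BZIP25, chr4:15409057-15409306 (minus) for AT4G31860, chr3:20210542-20210791 (plus) for DJ1F, chr4:15440721-15440970 (plus) for BAT1 and chr3:20059584-20059670 (plus) for CDKB1;1. The last line is the middle of the gap at the left edge of the raised genes on chromosome 3, chr3:19988728-19989027 (plus), where the tsk to Col ratio changes from one gene to the next.
BZIP25: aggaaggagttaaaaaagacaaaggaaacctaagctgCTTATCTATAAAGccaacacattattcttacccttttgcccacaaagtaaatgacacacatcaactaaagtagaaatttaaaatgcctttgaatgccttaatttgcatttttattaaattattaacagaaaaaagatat
AT4G31860: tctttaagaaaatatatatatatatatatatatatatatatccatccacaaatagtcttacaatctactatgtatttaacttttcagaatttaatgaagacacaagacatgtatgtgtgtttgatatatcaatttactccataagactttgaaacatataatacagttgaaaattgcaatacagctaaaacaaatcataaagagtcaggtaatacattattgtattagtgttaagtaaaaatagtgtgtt
DJ1F: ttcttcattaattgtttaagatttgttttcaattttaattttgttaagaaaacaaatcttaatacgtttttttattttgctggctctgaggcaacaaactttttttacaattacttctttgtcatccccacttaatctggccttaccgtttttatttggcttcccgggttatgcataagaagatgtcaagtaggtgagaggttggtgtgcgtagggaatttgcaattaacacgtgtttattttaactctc
BAT1: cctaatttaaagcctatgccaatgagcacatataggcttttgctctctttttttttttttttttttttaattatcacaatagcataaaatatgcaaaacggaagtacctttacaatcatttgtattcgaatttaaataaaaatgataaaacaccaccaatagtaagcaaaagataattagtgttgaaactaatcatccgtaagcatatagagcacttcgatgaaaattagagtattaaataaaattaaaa
CDKB1;1: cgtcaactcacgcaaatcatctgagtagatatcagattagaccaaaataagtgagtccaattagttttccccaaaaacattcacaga
gap on chromosome 3: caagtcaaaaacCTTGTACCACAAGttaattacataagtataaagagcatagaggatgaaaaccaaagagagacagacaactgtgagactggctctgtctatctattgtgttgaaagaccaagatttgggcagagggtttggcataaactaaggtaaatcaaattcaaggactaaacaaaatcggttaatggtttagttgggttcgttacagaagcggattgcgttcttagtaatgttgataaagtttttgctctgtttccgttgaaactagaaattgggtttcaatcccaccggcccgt

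The SOG1-type form, which reads as itself on the other strand, was in the 250 bases before the start of 15 of 147 members (10.2%), against 1830 of all 20404 genes (8.97%). An E2F-type form (TTTCCCGC, TTTCCCGG, TTTGGCGC or TTTGGCGG on either strand) was in 2 of the 147 stretches (1.36%), against 410 of all genes (2.01%). The telo box AAACCCTA, on either strand, was in 2 (1.36%), against 732 of all genes (3.59%). These matches describe letters in a window and are not binding sites. Among the sequences shown, that before BZIP25 and that of the gap hold a SOG1-type match.

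Libraries held 15343687 to 25115027 reads in the genes of the tables. XW mock replicate 1 stood apart from its group, with a chi-square per degree of freedom of 17.5 and 19.0 against replicates 2 and 3, which gave 2.51 between themselves. TSK (AT3G18730) had 58, 56.6 and 45.0 normalized counts in tsk mock libraries, against 147, 160 and 159 in Col mock libraries, so its transcript was lower in each library labelled tsk. HTA5 (listed as H2AXA), an H2A.X gene, was low in X mock (171 to 209 normalized counts) and not in XW mock (874 to 940), against 1033 to 1052 in Col mock. The other H2A.X gene, GAMMA-H2AX, had 485 to 532 in X mock and 543 to 649 in XW mock, against 556 to 632 in Col mock. Of the H2A.W genes, HTA6 had 776 to 840 in W mock and 947 to 1037 in XW mock, against 1112 to 1186 in Col mock. HTA7 had 623 to 642 and 467 to 896, against 685 to 784, and HTA12 193 to 206 and 171 to 257, against 128 to 163. These levels thus give no check of the labels W and XW, whose kind of allele is not stated. All 5 leaf markers and all 5 root markers were above 0 in every tsk and Col library. Every gene of the tables was above 0 in all 30 libraries, so this does not show which tissues the samples hold. The summed level of the leaf markers was 252700 to 284800 in tsk MMS and 490700 to 559900 in tsk mock, against 313000 to 321500 in Col MMS and 633900 to 655600 in Col mock. The summed level of the root markers was 524 to 571 in tsk MMS and 705 to 751 in tsk mock, against 546 to 686 in Col MMS and 705 to 810 in Col mock. The leaf sum was lower in tsk while the members stood higher, and its part in the results was not tested.

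Both runs stood close to 2-fold higher in tsk than in Col, with and without MMS. The median log2 fold change of tsk over Col on the chromosome 4 run was 0.95 under MMS (1.93-fold) and 0.94 in mock (1.92-fold). On the chromosome 3 run it was 0.94 under MMS (1.92-fold) and 0.91 in mock (1.88-fold). Over all 20256 genes tested the median was -0.03 under MMS and -0.04 in mock. Fold changes come from limma on log2(normalized count + 1), with a median standard error (SE) of 0.08 per member. The interquartile range of the 147 members was 0.80 to 1.09 under MMS and 0.82 to 1.06 in mock.

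Every one of the 147 members had a log2 fold change above 0 under both treatments. Between 1.5-fold and 2.5-fold lay 125 members under MMS, where 6.05% of all genes tested did, and 132 in mock, where 5.04% did. A fold of 2.5 or more was reached by 11 members under MMS and 10 in mock, and 11 and 5 stayed under 1.5-fold. Every tsk library lay above every Col library for 143 members under MMS (18.5% of all genes tested), for 145 in mock (18.3%) and for 142 in both (10.2%). Since the ranges were chosen for this contrast, these shares describe the choice. AT3G54060, AT4G31760, AT4G32000 and AT4G32295 overlapped between tsk and Col under MMS, and AT4G31760 and MIR156c did in mock.

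**Figure D1:**
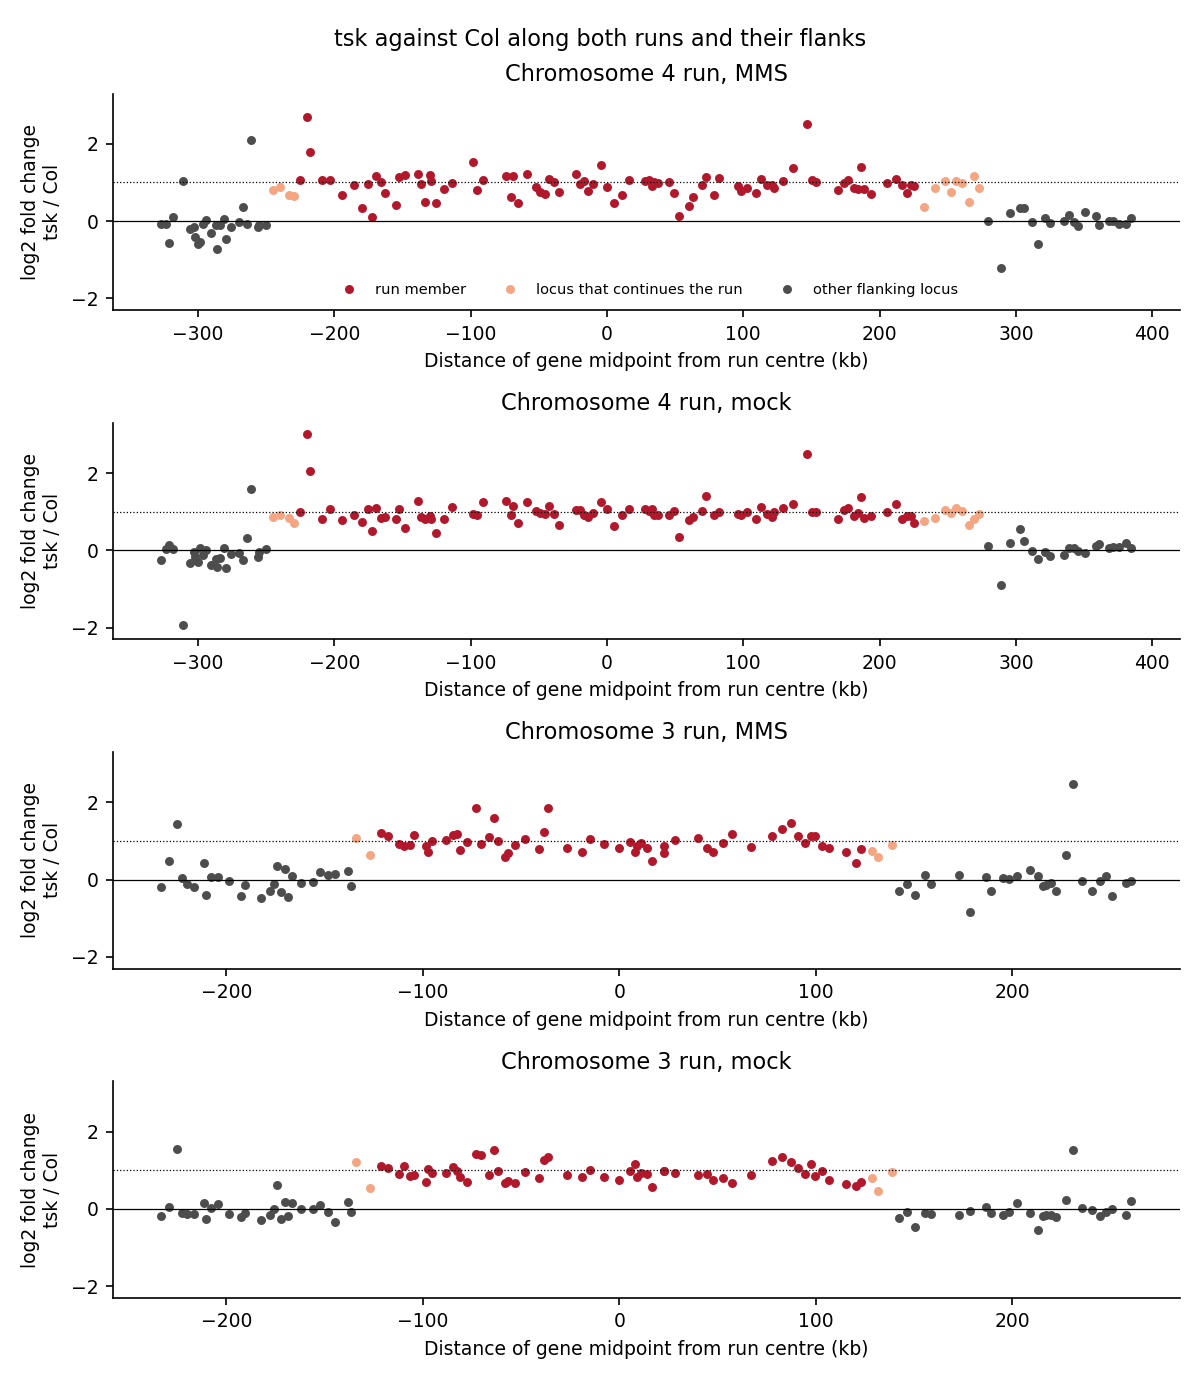
Log2 fold change of tsk over Col for each gene by the distance of its midpoint from the centre of its run in kb, for the runs (red), the loci that continue them (light) and the other flanking loci (grey), under MMS and in mock. The members lie near the dotted 2-fold line with medians of 0.91 to 0.95, and most grey loci lie near 0.

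The ratio was alike in each tsk library. The median over the chromosome 4 members, as log2 of a library over the Col mean of its treatment, was 0.95, 0.96 and 0.95 in the tsk MMS libraries and 0.94, 0.94 and 0.97 in the tsk mock libraries. For the chromosome 3 members it was 0.99, 0.93 and 0.94 in the tsk MMS libraries and 0.90, 0.92 and 0.92 in the tsk mock libraries. The 24 libraries of the other groups lay between -0.05 and 0.11, so no tsk library overlapped any of them. Since the members were chosen for tsk above Col, this separation describes the choice. Each Col library is also part of the Col mean it is set against, which holds it near 0. The members took 1.70% to 1.76% of the reads in tsk MMS and 1.73% in each tsk mock library, against 0.885% to 0.888% in Col MMS and 0.851% to 0.859% in Col mock. In XW mock replicate 1 the share was 0.932%, the highest outside tsk.

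**Figure D2:**
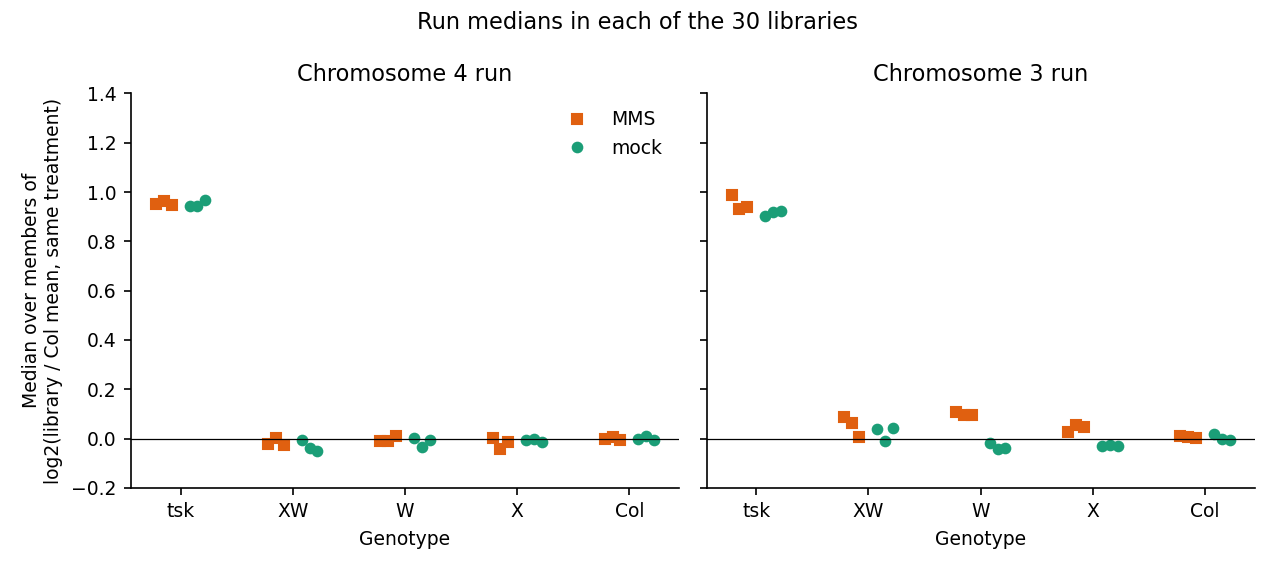
Median over the members of each run of log2(library over the Col mean of its treatment), one point per library, for 5 genotypes under MMS (squares) and in mock (circles). All 6 tsk libraries lie between 0.90 and 0.99, and all 24 others between -0.05 and 0.11.

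The ratio varied little with the level of a gene. Per length, the mean level of the members in Col mock ranged from 0.129 FPKM (fragments per kilobase of transcript, scaled to the reads of the library) to 637 FPKM, for PDE334. The 49 members with the lowest mean normalized count had a median log2 fold change of 0.99 in mock, the next 49 had 0.93 and the highest 49 had 0.91. Members on the minus strand had a median of 0.97 and those on the plus strand 0.92. Members named in a list of roles (49 genes) had a median of 0.92 and the other 98 members 0.93. Exons of 46 members overlap those of another gene, for 5 of them over most of their exon bases, and whether reads were counted by strand is not stated, so values of those members are uncertain.

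**Figure D3:**
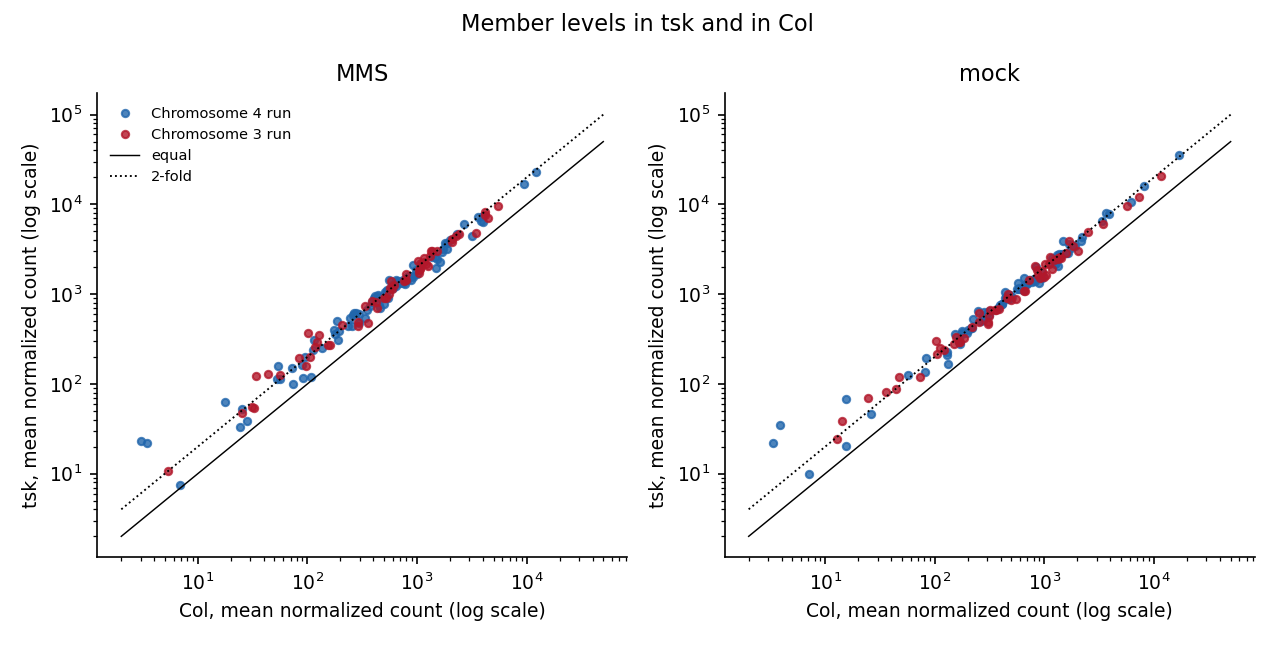
Mean normalized count of each member in tsk (vertical, log scale) against Col (horizontal, log scale), under MMS and in mock, n = 3 libraries per group. The points follow the dotted 2-fold line over the whole range of levels, and 3 chromosome 4 members with few counts in mock lie well above it.

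Of the genes of cell cycle, chromosomes and chromatin, 8 of 9 listed were measured, with a median log2 fold change of tsk over Col of 0.85 under MMS (0.68 to 1.59) and 0.95 in mock (0.66 to 1.53). CDKB1;1, a plant kinase of the G2 to M transition, had 335, 274 and 292 normalized counts in tsk mock, against 105, 104 and 101 in Col mock. Under MMS it had 143, 133 and 114 in tsk, against 52.1, 31.7 and 45.9 in Col. With 1.59 under MMS and 1.53 in mock it was the member of this list farthest above the run, and the groups did not overlap. TTN8, the cohesin subunit SMC1, had 1983, 2104 and 2127 in tsk MMS and 1516, 1662 and 1469 in tsk mock, against 1266, 1272 and 1259 in Col MMS and 1039, 952 and 956 in Col mock. Its log2 fold changes of 0.71 and 0.66 were among the smaller ones. RGD3, which removes TATA-binding protein from DNA, had 2445, 2394 and 2556 in tsk mock, against 1403, 1293 and 1324 in Col mock (0.88). AT4G31880, of the PDS5 type of cohesin partners, had 2200, 2185 and 2127 in tsk mock, against 1272, 1291 and 1172 in Col mock (0.80). FBL17, an F-box protein that removes inhibitors of cyclin-dependent kinases, had 0.97 in mock, and the histone acetyltransferase HAG1 had 1.05.

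Transcription, light and hormone regulators had 11 of 14 genes measured, with a median of 0.94 under MMS (0.69 to 1.22) and 0.91 in mock (0.58 to 1.26). AT3G54500, known as LNK2, a partner of the circadian clock, had 6491, 5718 and 5697 normalized counts in tsk mock, against 3574, 3129 and 3651 in Col mock (0.79). LUG, a corepressor of floral genes, had 2868, 2824 and 2979 in tsk mock, against 1665, 1639 and 1643 in Col mock (0.81). The bZIP transcription factor gene BZIP25 had 1798, 1832 and 1765 in tsk mock, against 935, 944 and 985 in Col mock (0.91). SCR, the root patterning factor SCARECROW, had a mean of 1646 in tsk mock and 1033 in Col mock (0.67). The largest value of the list in mock was 1.26, for HSL1, a B3 repressor of seed genes, and the smallest 0.58, for ENP, which acts in auxin transport.

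The 13 genes of chloroplast and mitochondrion were all measured, with a median of 1.01 under MMS (0.64 to 1.19) and 0.93 in mock (0.76 to 1.16). PDE334, a subunit of the chloroplast ATP synthase, had 1442, 1358 and 1433 FPKM in tsk mock, against 599, 637 and 675 FPKM in Col mock. In normalized counts it had 36490, 34140 and 36480 in tsk mock, against 16030, 16980 and 18170 in Col mock (1.07), with no overlap. HCEF1, the chloroplast fructose-1,6-bisphosphatase, had 8051, 7555 and 7371 in tsk MMS and 20900, 19800 and 21520 in tsk mock, against 4056, 4226 and 4114 in Col MMS and 11680, 11420 and 11500 in Col mock. The ratio stayed near 2-fold (0.89 under MMS, 0.85 in mock) while MMS lowered the gene in both genotypes. GR, a glutathione reductase, had 9496, 9282 and 9628 in tsk mock, against 5552, 5682 and 5586 in Col mock (0.76, the smallest of this list in mock). ASP5, a chloroplast aspartate aminotransferase, had the largest (1.16).

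Transport and membrane traffic had 6 of 9 genes measured, with medians of 1.00 under MMS and 0.99 in mock. VAMP711, a SNARE of the vacuole, had 3982, 4003 and 3878 normalized counts in tsk mock, against 2181, 2201 and 2103 in Col mock (0.87). AT4G32640, a subunit of COPII coats, had 3538, 3530 and 3523 in tsk mock, against 1695, 1803 and 1831 in Col mock (0.99). PTR1, a transporter of small peptides, had 1797, 2048 and 1867 in tsk mock, against 1136, 1206 and 1198 in Col mock (0.69). KAT3, a potassium channel subunit, was highest with 1.20.

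Wall and metabolism genes (6 of 9 measured) had medians of 1.00 under MMS and 0.99 in mock. CESA1, a cellulose synthase of primary walls, had 15140, 16520 and 16220 normalized counts in tsk mock, against 7980, 8207 and 7952 in Col mock (0.99). TSA1, a subunit of tryptophan synthase, had 2605, 2515 and 2461 in tsk mock, against 1333, 1458 and 1433 in Col mock (0.84). AT3G54470, the uridine monophosphate synthase, had 3347, 3505 and 3343 in tsk mock, against 1860, 1763 and 1789 in Col mock (0.91). HRGP1 (1.34) and its neighbour AT3G54580 (1.24) encode repetitive proteins of similar sequence, and reads that the 2 genes share make both values uncertain.

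The 5 genes of RNA and ribosome had medians of 1.04 under MMS and 0.91 in mock. RPS6, a protein of the small ribosomal subunit, had 10370, 10720 and 10730 normalized counts in tsk mock, against 6357, 6021 and 6137 in Col mock (0.78). SUA, a splicing factor, had 2280, 2376 and 2446 in tsk mock, against 1241, 1213 and 1183 in Col mock (0.97). AT4G31985, of the ribosomal protein L39 family, had 1323, 1314 and 1300 in tsk mock, against 693, 702 and 703 in Col mock (0.91). For each of these 3 genes every tsk mock library lay above every Col mock library, a description since the members were chosen for this contrast.

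A few members stood well above the rest of their run. AT4G31615 (REM35), a B3 transcription factor gene, had 43.2, 31.0 and 31.3 normalized counts in tsk mock, against 5.13, 5.39 and 1.17 in Col mock, a log2 fold change of 3.02 with an SE of 0.47. Its neighbour AT4G31620 (REM36), of the same family, had 65.4, 69.4 and 66.5 in tsk mock, against 13.9, 18.3 and 14.1 in Col mock (2.06). AT4G32510, annotated in the HCO3- transporter family, had 25.3, 20.3 and 20.5 in tsk mock, against 2.20, 5.39 and 2.35 in Col mock (2.49). These 3 genes have few counts, and a pseudocount of 1 understates their fold. AT3G54150, a putative methyltransferase gene, had 326, 393 and 383 in tsk MMS and 55.9, 95 and 55.7 in tsk mock, against 107, 123 and 76.1 in Col MMS and 25.6, 22.7 and 24.6 in Col mock (1.86 under MMS, 1.42 in mock). CDKB1;1, above, completes the 5 largest in mock.

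The lowest ratios in mock were those of AT4G32295 (0.34), MIR156c (0.45), AT4G31760 (0.50), AT3G54400 (0.58) and ENP (0.58), and no member was below 0.2 there. Under MMS, AT4G31760 (0.12) and AT4G32295 (0.14) were below 0.2. AT4G32295, annotated as a histone acetyltransferase, had 113, 112 and 130 normalized counts in tsk MMS and 167, 172 and 163 in tsk mock, against 99.2, 105 and 119 in Col MMS and 142, 140 and 115 in Col mock. MIR156c, the precursor of a microRNA that holds back adult leaf traits, had 17.9, 20.3 and 23.5 in tsk mock, against 21.2, 9.71 and 15.2 in Col mock, so its groups overlapped at a few counts. The mature sequence it carries, on the minus strand at chr4:15415491-15415510, was not counted here and identifies the locus.
miR156c-5p: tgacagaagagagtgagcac

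The excluded loci inside the runs stood near the run medians in mock, and WRKY18 was lower under MMS. WRKY18 (AT4G31800), a defence transcription factor, had 273, 340 and 267 normalized counts in tsk mock, against 118, 159 and 135 in Col mock (1.09), and 0.41 under MMS, where the lower quartile of the chromosome 4 run was 0.77. HTA11 (AT3G54560), an H2A.Z gene, had 721, 600 and 684 in tsk mock, against 373, 384 and 313 in Col mock (0.91), and 0.79 under MMS.

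The raised stretch went on past the chosen loci on all 4 sides. Loci next to a run whose log2 fold change was at least 0.3 under both treatments, a limit set after the values were seen, numbered 18. Each side was followed to the first measured gene outside that limit, so an end between neighbouring measured genes is part of the rule. On chromosome 4 there were 4 on the left, from HCF153 (0.87 in mock) to CSLC5 (0.72), and 9 on the right, from AT4G32700 (0.76, a polymerase gene known as TEB) to AT4G32790 (0.94). On chromosome 3 there were 2 on the left, AT3G53990 (1.22) and AT3G54000 (0.53), and 3 on the right, CDT1B (0.81), AMP1 (0.45) and AT3G54740 (0.94). PC-MYB1 (0.96), a MYB3R activator of G2 and M genes, is among those on the right of chromosome 4. With them the raised stretches measured 520 kb and 275 kb. The next genes outward were WRKY11 (-0.10 under MMS, 0.04 in mock) and AT4G32800 (0.01 and 0.12) on chromosome 4, and AT3G53980 (-0.18 and -0.09) and AT3G54750 (-0.30 and -0.23) on chromosome 3. The gaps between the last raised and the next gene were 3203 and 4463 bases on chromosome 4 and 828 bases on the left of chromosome 3, while on its right the genes overlap by 53 bases. Farther out, some genes were again above 0.3 under both treatments, such as AUR1 (0.33 under MMS, 0.55 in mock) and AT3G53860 (0.36 and 0.62).

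At the ends inside the chosen ranges, the 3 first members on chromosome 4 were UTr7 (0.99 in mock), AT4G31615 and AT4G31620 (above), and the 3 last AT4G32670 (0.90), AT4G32680 (0.90) and GLB3 (0.71). On chromosome 3 the 3 first were PAS1 (1.10), AtIPCS1 (1.06) and BSK6 (0.90), and the 3 last TTN8 (0.66), AT3G54680 (0.60) and SETH3 (0.69). AT4G31615, AT4G31620, PAS1 and AtIPCS1 lay above the upper quartile of their run in mock (1.06 on chromosome 4, 1.04 on chromosome 3). GLB3 and the 3 last on chromosome 3 lay below the lower quartile (0.87 on chromosome 4, 0.81 on chromosome 3). The other loci at the ends lay between the quartiles.

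Beyond the runs, the 30 table loci on each of the 4 sides served as a control. Of these 120 loci, 52 passed the test for tsk against Col under MMS (32 higher and 20 lower), beside 30.3% of all genes tested (12.8% higher and 17.5% lower), and 40 in mock (26 higher and 14 lower), beside 26.0% (10.9% higher and 15.1% lower). In FPKM the split in mock was 32 higher and 5 lower. Without the 18 continuing loci, an alternative added after the data were seen, 34 of 102 passed under MMS (14 higher and 20 lower) and 22 in mock (8 higher and 14 lower), with medians of -0.06 and -0.07. All 18 left out were called higher and had been picked for their high ratios, so the change in balance follows from that choice. Beyond the continuing loci, AT4G31520, of the SDA1 family, had a high ratio (2.09 under MMS, 1.59 in mock). Its inner neighbour AT4G31530 had -0.16 and -0.18 and its outer neighbour AT4G31510 -0.07 and 0.31. High ratios also stood in the flanks of the chromosome 3 run. The highest on its left was 1.43 under MMS and 1.54 in mock, and on its right 2.48 and 1.52.

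Medians over 21 consecutive table loci put the runs beside the rest of the genome. Within the raised stretches these medians of tsk over Col were 0.85 to 1.01 under MMS and 0.85 to 1.02 in mock. Of 19949 windows that hold no locus of the raised stretches, 140 were at least 0.5 under MMS and 94 in mock, with a highest value of 1.05 and 1.03, so stretches elsewhere also stood near 2-fold in tsk. No window reached 0.5 in X, W or XW, where the highest was 0.43.

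MMS changed most members, in tsk as in Col. In tsk, 55 members rose (35.5% of all genes tested did) and 44 fell (35.6%), 99 of 147 beside 71.1% of all genes, by limma at the 0.05 threshold on the adjusted p. In Col, 56 rose (35.5%) and 47 fell (35.6%), 103 of 147 beside 71.1%. The members' shares were thus close to the background. In FPKM the split in Col was 72 higher and 39 lower. The median MMS response was 0.05 in tsk and 0.07 in Col, and single members ranged from -3.08 to 2.44 in tsk and from -3.65 to 2.33 in Col.

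The rises with the smallest adjusted p show how far MMS moved some members in both genotypes. BZIP25 had 4747, 4483 and 4714 normalized counts in tsk MMS, against 1798, 1832 and 1765 in tsk mock, a log2 change of 1.37 (SE 0.06, adjusted p = 4.6e-18 by limma). In Col it had 2436, 2539 and 2272 under MMS, against 935, 944 and 985 in mock (1.34, adjusted p = 7.5e-18 by limma). The protein phosphatase 2C gene AT4G31860 had 3956, 4987 and 4502 in tsk MMS, against 1166, 1092 and 1057 in tsk mock (2.01, adjusted p = 2.3e-16 by limma), and its change in Col was 2.33. PTR1 rose by 1.10 in tsk and 0.81 in Col, and the KNOX factor KNAT5 by 0.97 and 1.22. AT3G54150, picked out after its values were seen, had the largest rise in tsk (2.44, beside 1.999 in Col). In every case with values shown the 3 MMS libraries lay above the 3 mock libraries of the genotype. The genes were picked for their rises, so this describes the choice.

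Among the falls, BAT1 (AT4G31910), an acyltransferase linked to brassinosteroids, had 139, 201 and 129 normalized counts in tsk MMS, against 1390, 1291 and 1233 in tsk mock (-3.08, SE 0.14, adjusted p = 1.5e-17 by limma). In Col, AT4G31910 had 52.1, 63.5 and 44.8 under MMS, against 715, 659 and 653 in mock (-3.65, adjusted p = 4.9e-19 by limma). DJ1F, of the DJ-1 family, had 319, 354 and 385 in tsk MMS, against 2983, 2505 and 2351 in tsk mock (-2.88, adjusted p = 5.7e-18 by limma). In Col it had 133, 118 and 132 under MMS, against 1069, 1124 and 1178 in mock (-3.13). HCEF1, whose values stand above, fell by 1.44 in tsk and by 1.48 in Col on the log2 scale. The calls in the role lists stand beside 35.5% of all genes tested higher and 35.6% lower under MMS, in tsk as in Col. Of the chloroplast and mitochondrion list 2 of 13 rose and 7 fell in tsk, and 1 rose and 8 fell in Col. The cell cycle list had 3 higher and 2 lower of 8 in both genotypes, and the transport list 3 of 6 higher and 0 lower in both. The transcription list had 4 of 11 higher and 5 lower in both genotypes and the wall and metabolism list 3 of 6 higher and 2 lower in both. Of the 5 RNA and ribosome genes, 3 were higher and 2 lower in tsk, and 2 higher and 2 lower in Col.

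**Figure D4:**
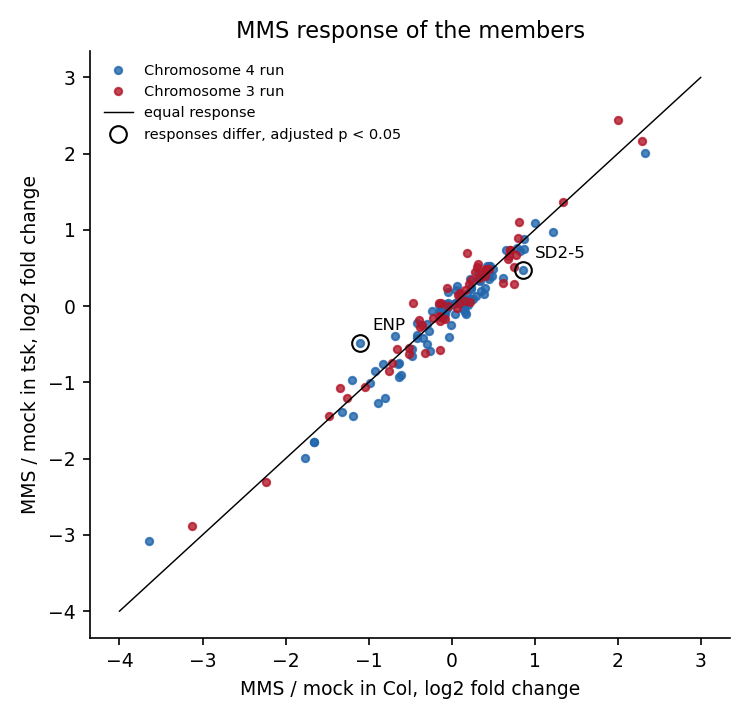
Log2 fold change of MMS over mock in tsk (vertical) against Col (horizontal) for the 147 members, with the line of equal response. The points follow the line from -3.65 to 2.33, and the 2 circled members, ENP and SD2-5, are those whose responses differed by the interaction test.

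Across the 147 members the MMS response of tsk and that of Col had a Pearson r of 0.97, and the tsk over Col ratios under MMS and in mock an r of 0.83. These correlations are over genes of the same libraries, which are not independent replicates, and are given as a description. The MMS response of tsk minus that of Col lay within 0.25 of 0 for 124 members and within 0.5 for 143. The interaction test called 2 of 147 members, 1 higher and 1 lower, where 2.49% of all genes tested were called (1.37% higher and 1.13% lower). ENP was 0.63 higher (SE 0.11, adjusted p = 0.0014 by limma): it had 1027, 882 and 933 normalized counts in tsk MMS and 1386, 1265 and 1306 in tsk mock, against 416, 414 and 397 in Col MMS and 822, 920 and 905 in Col mock. The response of ENP to MMS was -0.48 in tsk and -1.10 in Col. SD2-5, a receptor-like kinase, had a smaller rise in tsk (-0.39, SE 0.10, adjusted p = 0.031 by limma): 1872, 2109 and 1869 in tsk MMS and 1283, 1470 and 1472 in tsk mock, against 1454, 1592 and 1424 in Col MMS and 779, 873 and 816 in Col mock. Its response was 0.47 in tsk and 0.86 in Col. SD2-5 lost its call (1 called of 147) without tsk MMS replicate 1 or 3, tsk mock replicate 2 or 3, Col MMS replicate 2 or Col mock replicate 1 or 3.

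Members were also grouped by how X, W and XW responded to MMS, a contrast that holds no tsk or Col library. The 16 that MMS lowered by 2-fold or more had a median log2 fold change of tsk over Col of 1.15 under MMS and 1.04 in mock. For the 7 that it raised by 2-fold or more it was 0.77 under MMS and 0.91 in mock, and for the other 124 members 0.94 and 0.92. The medians were thus farther apart under MMS than in mock, a difference that was not tested.

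In the other mutants the medians over the members were near the Col level. In XW the median log2 fold change against Col over the 147 members was 0.02 under MMS and -0.02 in mock, in W 0.02 and -0.01, and in X 0.00 and -0.01. On the chromosome 3 run alone the W median under MMS was 0.09, the farthest from 0 in these 3 mutants. In XW MMS, 20 members were higher than Col (12.8% of all genes tested) and 20 lower (12.5%), 40 in all beside 25.3%. In XW mock 14 were higher (11.8%) and 24 lower (13.5%), 38 in all beside 25.3%, and 30 (11 higher and 19 lower) without XW mock replicate 1. It was 22 when XW mock and Col mock were fitted alone. In W MMS, 13 were higher (7.75%) and 1 lower (3.93%), 14 in all beside 11.7%, though in FPKM 11 were higher and 10 lower. In W mock 9 were higher (6.05%) and 9 lower (7.08%), 18 in all beside 13.1%. That count was 9 to 11 without any 1 of the Col mock replicates or W mock replicate 1 or 3. In X MMS, 8 were higher (6.46%) and 10 lower (4.50%), 18 in all beside 11.0%, with 7 and 15 in FPKM. Without Col MMS replicate 1 or 3 or X MMS replicate 3 it was 9, 10 and 11. In X mock 3 were higher (4.29%) and 6 lower (3.20%), 9 in all beside 7.48%. That count was 21 when X mock and Col mock were fitted alone, and 5 without Col mock replicate 1 or X mock replicate 3. These comparisons share the Col libraries of their treatment with each other and with tsk.

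**Figure D5:**
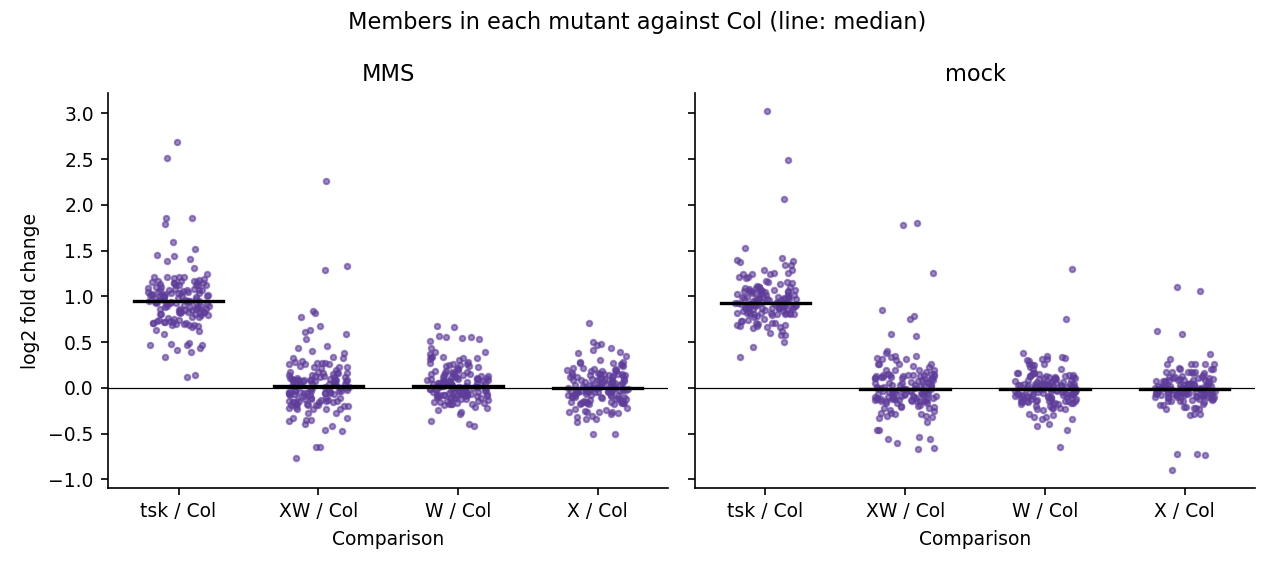
Log2 fold change against Col of each of the 147 members in tsk, XW, W and X, under MMS and in mock, with the median as a line. The tsk points centre on 0.95 under MMS and 0.93 in mock, and the medians of XW, W and X lie between -0.02 and 0.02.

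Single members did change in these mutants. AT4G32480, a DUF506 gene, had 2185, 2219 and 2356 normalized counts in XW mock, 1214, 1943 and 1760 in W mock and 839, 1056 and 1135 in X mock, against 617, 651 and 694 in Col mock. Its log2 fold change was 1.78 in XW (SE 0.13, adjusted p = 6.3e-12 by limma), 1.3 in W (adjusted p = 2e-08) and 0.62 in X (adjusted p = 0.002). In tsk mock it had 1323, 1518 and 1721 (1.21). AT4G32020, annotated as serine/arginine repetitive matrix-like, had 7825, 6454 and 6688 in XW mock, against 3897, 3895 and 3820 in Col mock (0.85, adjusted p = 8.9e-10 by limma), and rose by 0.35 in W and 0.26 in X, the last call lost without any 1 of the Col mock replicates or X mock replicate 2 or 3. Its neighbour AT4G32030 rose by 0.57 in XW mock (adjusted p = 5.9e-06 by limma). TBL36, of a family that acetylates wall polymers, had 364, 475 and 329 in X mock, against 239, 254 and 273 in Col mock (0.59, adjusted p = 0.0092 by limma), a call lost without X mock replicate 2 or Col mock replicate 1.

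Of the 5 members with the largest ratio in tsk mock, CDKB1;1 and AT4G32510 were higher in XW under both treatments, a pair singled out after the values were seen. That ratio and the XW mock test share the Col mock libraries, and a large ratio favours low Col values. The XW mock values of these 5 are thus not independent of the pick. CDKB1;1 had 58.8, 68.0 and 79.7 normalized counts in XW MMS and 160, 159 and 148 in XW mock, against 52.1, 31.7 and 45.9 in Col MMS and 105, 104 and 101 in Col mock. Its log2 fold change was 0.68 under MMS (adjusted p = 0.00099 by limma) and 0.59 in mock (adjusted p = 0.0036). In FPKM it had 3.47, 3.17 and 3.06 in W mock, against 2.48, 2.46 and 2.37 in Col mock. X mock had 2.93, 3.24 and 3.36 FPKM. Under MMS the W and X libraries overlapped those of Col in FPKM. AT4G32510 had 14.6, 14.1 and 11.2 in XW mock, against 2.20, 5.39 and 2.35 in Col mock (1.80, adjusted p = 0.00095 by limma), and 2.26 under MMS. AT4G31615 had 1.29 under MMS (adjusted p = 0.044 by limma) and 1.25 in mock (adjusted p = 0.051), AT3G54150 1.33 and 0.19, and AT4G31620 0.61 and 0.35.

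Among the falls in the other mutants, GR had 4361, 4226 and 4162 normalized counts in XW MMS and 4216, 4657 and 4747 in XW mock, against 5458, 5397 and 5431 in Col MMS and 5552, 5682 and 5586 in Col mock. Its log2 fold change was -0.35 under MMS (adjusted p = 2.1e-05 by limma) and -0.31 in mock (adjusted p = 0.00014), with -0.22 in W mock and -0.24 in X mock, the last call lost without X mock replicate 3. GPX7, a chloroplast glutathione peroxidase, had 235, 254 and 264 in X mock, against 436, 391 and 414 in Col mock (-0.72, adjusted p = 0.0018 by limma). Phox4, with a PB1 domain, fell by 0.53 on the log2 scale in XW mock, and AT4G31790, a methylase gene, by 0.46. VAMP711 fell by 0.42 in W mock, where it had 1552, 1682 and 1611, against 2181, 2201 and 2103 in Col mock (adjusted p = 0.00015 by limma). AT3G54510, annotated as ERD4, fell by 0.90 in X mock (50.2, 36.6 and 32.5, against 76.9, 77.7 and 66.8 in Col mock; adjusted p = 0.00076 by limma).

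Under MMS, TSA1 had the smallest adjusted p among rises in XW and X. It had 2734, 2123 and 2173 normalized counts in XW MMS and 1695, 1945 and 2038 in X MMS, against 1318, 1393 and 1363 in Col MMS, log2 fold changes of 0.78 (adjusted p = 5.2e-08 by limma) and 0.47 (adjusted p = 0.0003). AT4G32460, a DUF642 gene, was 0.84 higher in XW MMS and DJ1F 0.81 higher, while SD2-5 fell by 0.47 and AT4G32190 by 0.46. In tsk MMS the ratios of these genes to Col were 0.87 for AT4G32460, 1.46 for DJ1F, 0.39 for SD2-5 and 0.47 for AT4G32190. In W MMS, ENODL15 (0.67), HCEF1 (0.34) and MGD1 (0.33), the synthase of the main chloroplast galactolipid, were higher, and the cyclophilin gene AT4G32420 (-0.18, adjusted p = 0.022 by limma) was the single member that fell, a call lost without Col MMS replicate 3 or W MMS replicate 2 or 3. In X MMS, AT4G32470 (0.28), a subunit of respiratory complex III, and PUMP1 (0.29), a mitochondrial carrier, were higher, and CESA1 fell by 0.28, with 7727, 7865 and 7679, against 9278, 9612 and 9321 in Col MMS (adjusted p = 0.00099 by limma). In FPKM, CESA1 was also lower in XW MMS, with 286.9, 300.6 and 321.5, against 365.9, 370.8 and 371.8 in Col MMS. W MMS had 309.8, 332.7 and 335.9 FPKM.

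In W mock, the other members among the smallest adjusted p were PUMP1 (0.20, adjusted p = 0.025 by limma, lost without any 1 of the Col mock replicates or W mock replicate 2 or 3), SD2-5 (-0.34, adjusted p = 0.0015) and AT4G32440 (-0.28, adjusted p = 0.0025), a gene with a Tudor-like domain.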

How the data were processed

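The deposited normalized counts (a signal, reads per gene divided by 1 size factor per library) were made by the authors, who used STAR, TAIR10 and DESeq2 1.30.1 per the submitters' processing notes. The authors also deposited FPKM values, used here as an alternative and for levels per length. Whether reads were counted by strand or shared between genes is not given in the sources used here. Dividing by the smallest step gave whole reads for 100% of values within 0.01 read; in XW mock replicate 2 and X MMS replicate 3 the step is close to 1, so that check says little there.

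One limma 3.58.1 model (R 4.3.3) of log2(normalized count + 1) over 30 libraries in 10 groups (20 residual degrees of freedom) gave all contrasts. Genes needed a normalized count of 10 in 3 libraries (20256 of 20404, all 147 members), and Benjamini-Hochberg adjustment ran over all of them, with a threshold of 0.05. Alternatives were a pseudocount of 5, no filter, FPKM, TMM scaling, a replicate block, the compared groups alone, each replicate left out, edgeR 4.0.16 and DESeq2 1.42.0 on recovered reads and ratios of summed counts. Scripts used Python 3.11.15 and pandas 2.3.3, and the fit was tested on simulated data. Counting limits the precision of genes with few reads; no interval is given for them.

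Members, gene lists and tests were chosen with earlier results of these data known. Named genes were TSK, the list members with the highest means (up to 3 with values per library), the loci at the run ends, the 5 largest mock ratios and any below 0.2, up to 3 members a direction with the smallest adjusted p in each tested comparison, and the excluded loci; others named were chosen after their values were seen. Sequences and gene positions are from RefSeq (TAIR10.1), to which all 20404 identifiers matched.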

Additional observations from a re-analysis of the deposited data

Results flagged for a closer look

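The response to MMS differed between tsk and Col for 2 of the 147 members by the interaction test (limma). For ENP the response in tsk minus that in Col was 0.63 on the log2 scale (adjusted p = 0.0014 by limma), with -0.48 in tsk and -1.10 in Col. For SD2-5 it was -0.39 (adjusted p = 0.031 by limma), with 0.47 in tsk and 0.86 in Col. SD2-5 lost its call, leaving 1 member, without tsk MMS replicate 1 or 3, tsk mock replicate 2 or 3, Col MMS replicate 2 or Col mock replicate 1 or 3.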

How the results depend on the processing

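No fold change of a run median or named member changed sign under the alternatives run. Flanking calls were 32 higher and 20 lower under MMS, and 26 and 14 in mock. Without the continuing loci they were 14 and 20, and 8 and 14. Those loci were picked for their high ratios, so this change follows from the choice. The chromosome 4 median of tsk over Col was 0.968 under MMS and 1.001 in mock in FPKM, 0.983 under MMS with TMM, 0.984 under MMS with edgeR, and 0.890 under MMS and 0.980 in mock as a ratio of summed counts. The chromosome 3 median was 0.909 under MMS with a pseudocount of 5, 0.973 with TMM, 0.975 with edgeR, 0.898 in mock in FPKM, and 0.9 under MMS and 0.864 in mock as a ratio of sums. The cause was not tested. With 1 replicate left out the chromosome 4 median was 0.943 to 0.969 under MMS and 0.945 to 0.971 in mock, and the chromosome 3 median 0.927 to 0.970 and 0.903 to 0.924. Flanking loci called were 34 under MMS and 22 in mock without the continuing loci (fewer loci), and 38 to 44 and 30 to 34 with 1 replicate left out. With the compared groups alone (fewer samples), 22 members were called in XW mock and 21 in X mock. With 1 replicate left out, members called were 31 to 35 in XW MMS, 29 to 43 in XW mock, 10 to 13 in W MMS, 9 to 12 in W mock, 9 to 16 in X MMS, 5 to 9 in X mock, 91 to 96 for MMS in tsk, 90 to 100 for MMS in Col and 1 to 2 for the difference of the MMS responses. Of the values of named members under the alternatives, 1132 stayed on the same side of the threshold or within the spread, 79 moved and 25 lost their call. The replicate number does not pair the samples (same-number correlations of -0.11 to 0.09). With the replicate block, members called were 39 in XW MMS, 35 in XW mock, 14 in W MMS, 18 in W mock, 15 in X MMS, 9 in X mock, 99 for MMS in tsk, 103 for MMS in Col and 2 for the difference, and flanking loci called were 50 under MMS and 38 in mock. Members with few counts, such as AT4G31760 and MIR156c, had standard errors of 0.44 and 0.32, so their ratios are uncertain.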
